A study of Mus musculus with 6 samples.

Results

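The 10 genes described here, Dusp4, Dusp5, Dusp6, Spry1, Spry2, Spry4, Spred1, Etv4, Etv5 and Phlda1, are genes whose transcription follows the activity of the kinase ERK, most of them brakes on the same pathway. They were chosen by name as rows of the deposited expression table, which lists 24493 genes, and all 10 were present in it. The series has 6 RNA libraries from KPCY cells, which are C57BL/6 mouse pancreatic tumour cells from a genetically engineered model that carries a yellow fluorescent lineage label, a background that all groups share. The cells had been transduced with Pthlh hairpin 1 (n = 2), Pthlh hairpin 2 (n = 2) or the non-targeting hairpin shNT (n = 2), and Pthlh encodes parathyroid hormone-related protein. The design speaks of parental clones in the plural, no label ties a library to a clone, and the labels name sorted tumour cells from mice while the protocols describe culture, so hairpin, clone and growth history cannot be told apart. Nothing in the labels says that replicates were separate cultures or animals, so the spread behind every p-value is that between these 6 libraries and may be technical.

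Receptor tyrosine kinases feed, through RAS proteins, the cascade of RAF, MEK and ERK kinases. Active ERK induces transcription of its own inhibitors. DUSP4, DUSP5 and DUSP6 are phosphatases that remove the activating phosphates from ERK, the Sprouty proteins and SPRED1 act upstream at the level of RAS, and ETV4 and ETV5 are ETS transcription factors that carry the signal to further genes. In pancreatic ductal tumours, where this pathway is commonly active, transcripts of this kind are used as a readout of pathway output.

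Values are TPM, a share of all transcripts scaled to gene length, so that levels of different genes can be set side by side. Pthlh itself was at 0 and 0.106 TPM with hairpin 1, 0.0423 and 0.263 TPM with hairpin 2, and 0.752 and 0.966 TPM in shNT. It was too low for the filter of the tests below. In a fit with no filter it fell with hairpin 1, to 6.14% of the shNT mean (limma adjusted p = 0.00837), and was at 17.8% of it with hairpin 2, which missed the threshold (0.0583). The summed TPM of 8 epithelial markers was 3760 to 4460, although Epcam and Cldn4 were below 1 TPM in every library. Of the other 6, Krt19 (989 TPM with hairpin 1, against 426 TPM in shNT), Sox9 and Krt8 rose with hairpin 1, and Krt18, Krt7 and Cdh1 (235 against 299 TPM) fell, so these markers moved with hairpin 1 as the genes below did, and their part in the results was not tested. With hairpin 2 the limma count was 0 of 6 markers, and 0 also at unadjusted p under 0.05. The summed level of 6 fibroblast markers was at most 0.522 TPM, that of 4 endothelial markers at most 0.117 TPM, that of 6 lymphocyte markers at most 2.07 TPM, and that of 6 myeloid markers at most 2.86 TPM. Adgre1, Cd3e, Nkg7 and Lum were listed at 0 in every library. In bulk RNA, fewer cells of a type and less RNA per cell cannot be told apart. Differences are on the log2(TPM + 1) scale, on which changes of weakly expressed genes come out too small, and were tested with limma over 11549 genes with Benjamini-Hochberg adjustment at a threshold of 0.05. The median of all tested genes was itself 0.11 above shNT with hairpin 1 and 0.09 with hairpin 2 (log2). The Mir6236 entry alone took 20.4% and 19.7% of TPM in hairpin 1 libraries, 23.4% and 21.4% in hairpin 2 libraries, and 34.1% and 24.3% in shNT libraries, so it was highest in shNT replicate 1, and its part in that shift was not tested apart from the fit without small-RNA entries.

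Promoter sequence was given for 6 of the 10 genes. The promoters of Dusp5, Dusp6 and Spry1 are shown because, among the 10 genes, these had the largest differences with hairpin 1, where Dusp5 and Dusp6 were lower and Spry1 higher. Each covers 250 bases before and 50 bases after the start of the gene (RefSeq, GRCm38.p6, plus strand), at chr19:53528895-53529194 for Dusp5, chr10:99262981-99263280 for Dusp6 and chr3:37639697-37639996 for Spry1. Capitals mark matches to the CArG box, the element of serum response factor, in Dusp5, and to the TEAD core GGAATG in Spry1.
Dusp5 promoter: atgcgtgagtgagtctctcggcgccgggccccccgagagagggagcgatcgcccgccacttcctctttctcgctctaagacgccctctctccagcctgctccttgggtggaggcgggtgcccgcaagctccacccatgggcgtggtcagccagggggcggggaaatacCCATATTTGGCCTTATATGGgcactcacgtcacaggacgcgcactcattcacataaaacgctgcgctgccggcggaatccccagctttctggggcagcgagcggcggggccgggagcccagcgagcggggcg
Dusp6 promoter: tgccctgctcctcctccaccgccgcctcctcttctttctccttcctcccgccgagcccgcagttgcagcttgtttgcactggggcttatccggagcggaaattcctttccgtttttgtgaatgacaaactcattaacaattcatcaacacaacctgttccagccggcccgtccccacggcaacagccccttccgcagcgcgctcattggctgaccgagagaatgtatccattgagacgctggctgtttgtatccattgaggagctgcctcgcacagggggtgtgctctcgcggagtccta
Spry1 promoter: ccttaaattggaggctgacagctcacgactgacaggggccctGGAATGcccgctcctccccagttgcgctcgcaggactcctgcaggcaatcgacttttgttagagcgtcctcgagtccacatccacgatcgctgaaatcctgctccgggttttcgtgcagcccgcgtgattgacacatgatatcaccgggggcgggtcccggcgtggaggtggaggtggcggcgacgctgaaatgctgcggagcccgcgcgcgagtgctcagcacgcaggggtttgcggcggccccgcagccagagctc
The Dusp5 window held 2 adjoining CArG boxes, which began 82 and 72 bases before the start. A CArG box on either strand was found in 1.63% of 32851 mouse promoters of the same length, and 2 or more in 0.0183%, or 6 promoters. Dusp5 also held the cAMP response half-site TGACG, on the minus strand and not overlapping the CArG boxes, 55 bases before the start, as did 20.8% of promoters. The Spry1 window held 1 TEAD core 208 bases before the start, against 14.7% of promoters. The full cAMP element (TGACGTCA, 1.79% of promoters) and the AP-1 element (TGANTCA, 7.81%) were searched on both strands and matched in none of the 7 windows of the 6 genes, while the ETS core (CCGGAA, 14.9%) matched once, in Spry2. A match describes letters in this window and nothing about binding.

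In shNT cells the 10 genes spanned from the upper to the lower range of expressed genes. Phlda1, which encodes a pleckstrin homology-like domain protein, was highest at 116 ± 3.10 TPM (SD, n = 2), above 92.3% of tested genes. Dusp4 followed at 70.4 ± 4.31 TPM, Dusp6 at 62.9 ± 3.67 TPM and Dusp5 at 49.0 ± 0.421 TPM. Spry2 stood at 41.3 ± 2.93 TPM, Etv4 at 36.7 ± 0.989 TPM and Spry1 at 23.0 ± 0.630 TPM. Etv5 (20.5 ± 1.95 TPM) and Spred1 (19.9 ± 0.985 TPM) overlapped between libraries and could not be ordered. Spry4 was lowest at 7.07 ± 0.290 TPM, above 32.8% of tested genes. With hairpin 2 the order of the group means was that of shNT, and Spry2 and Etv4 also overlapped. With hairpin 1, Dusp5 stood at place 7 of 10 by group mean, against place 4 in shNT, and Spry1 at place 5, against place 7. Etv4, the gene ranked just above Spry1, overlapped with it between hairpin 1 libraries, so these could not be ordered, nor could Etv5 and Spred1.

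**Figure D1:**
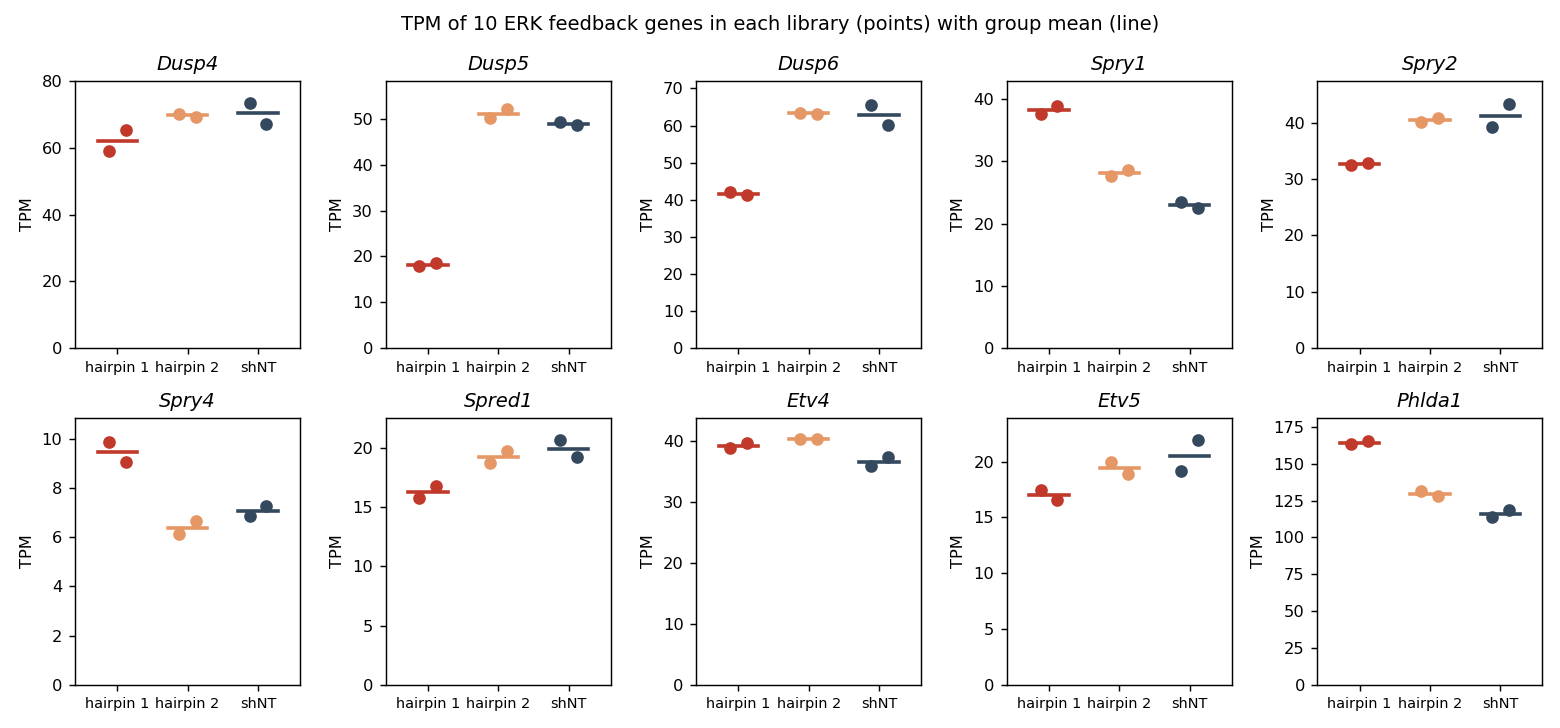
TPM (vertical axes, from 0) of the 10 ERK feedback genes in hairpin 1, hairpin 2 and shNT libraries, with 1 point for each library and a line at the mean of each group of 2. Dusp5 lies at 18.0 and 18.5 TPM with hairpin 1, against 49.3 and 48.7 TPM in shNT, while Spry1 and Phlda1 are highest with hairpin 1.

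The first comparison asked how these genes differed between cells with Pthlh hairpin 1 and control cells. With hairpin 1, Dusp5, Dusp6, Spry2, Spred1 and Etv5 fell, Spry1, Spry4 and Phlda1 rose, and Dusp4 and Etv4 did not pass. The count was thus 5 of 10 lower and 3 of 10 higher. Over all tested genes 18.1% were called lower, 32.1% higher and 50.2% in either direction, and the median difference was -0.21 for the 10 genes and 0.11 for all genes (log2). Libraries of hairpin 1 and shNT did not overlap for any of the 10 genes, as for 76.8% of all tested genes. Without hairpin 1 replicate 1, 3 of the 10 were lower.

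Of the phosphatases, Dusp5 changed most. Dusp5 (chromosome 19, 53529109 to 53542431, mm10), a nuclear phosphatase of ERK, was at 18.0 and 18.5 TPM in hairpin 1 libraries, 50.1 and 52.3 TPM in hairpin 2 libraries, and 49.3 and 48.7 TPM in shNT libraries. Both hairpin 1 libraries were low, while those of hairpin 2 lay slightly above shNT in deposited TPM, a direction that turned under 4 other scalings (-0.0201 after quantile normalization, -0.0312 after median-ratio scaling, -0.0690 without small-RNA entries and -0.0177 with chromosome medians subtracted). Dusp5 fell by 1.38 ± 0.04 with hairpin 1 (log2, SE; limma adjusted p = 4.4e-05), to 37.3% of the shNT mean. Dusp6 (chromosome 10, 99263231 to 99267489), a cytoplasmic phosphatase of ERK, was at 42.1 and 41.2 TPM with hairpin 1, 63.4 and 63.1 TPM with hairpin 2, and 65.5 and 60.3 TPM in shNT. The hairpin 1 libraries again stood below the other 4, and hairpin 2 overlapped with shNT. Dusp6 fell by 0.58 ± 0.05 with hairpin 1 (limma adjusted p = 0.000748), to 66.3% of the shNT mean. Dusp4 (chromosome 8, 34807297 to 34819894), a nuclear phosphatase of ERK and related kinases, was at 59.1 and 65.4 TPM with hairpin 1, 70.3 and 69.2 TPM with hairpin 2, and 73.5 and 67.4 TPM in shNT. Its difference with hairpin 1, -0.18 ± 0.07, missed the threshold (limma adjusted p = 0.0790). Relative to the median of all genes it was -0.28, and it passed with libraries rescaled by the median ratio (limma adjusted p = 0.0290), in the fit that left out shNT replicate 2 (0.0328) and in 2 further alternatives, in a range of 0.0200 to 0.333.

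The Sprouty genes did not move together. Spry1 (chromosome 3, 37639947 to 37644598), an inhibitor of receptor tyrosine kinase signalling, was at 37.6 and 38.9 TPM in hairpin 1 libraries, 27.6 and 28.6 TPM in hairpin 2 libraries, and 23.5 and 22.6 TPM in shNT libraries. The groups formed 3 separate levels, highest with hairpin 1 and lowest in shNT. Spry1 rose by 0.71 ± 0.05 with hairpin 1 (log2, SE; limma adjusted p = 0.000337). Spry2 (chromosome 14, 105891947 to 105896819), its relative, was at 32.5 and 32.9 TPM with hairpin 1, 40.1 and 40.8 TPM with hairpin 2, and 39.2 and 43.4 TPM in shNT. It fell by 0.33 ± 0.06 with hairpin 1 (limma adjusted p = 0.00642), so that both hairpin 1 libraries lay below all others. Spry4 (chromosome 18, 38586247 to 38601415) was at 9.87 and 9.06 TPM with hairpin 1, 6.14 and 6.65 TPM with hairpin 2, and 6.86 and 7.27 TPM in shNT. Spry4 rose by 0.38 ± 0.07 with hairpin 1 (limma adjusted p = 0.00864). Leaving out hairpin 1 replicate 1 ended that call (limma adjusted p = 0.0569), as did leaving out small-RNA entries (0.146, with the difference at 0.22), in a range of 0.00808 to 0.146.

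Spred1 (chromosome 2, 117121374 to 117182279) encodes a protein that brings the RAS inhibitor neurofibromin to the membrane. It was at 15.8 and 16.8 TPM in hairpin 1 libraries, 18.7 and 19.7 TPM in hairpin 2 libraries, and 20.6 and 19.2 TPM in shNT libraries. Spred1 fell by 0.28 ± 0.06 with hairpin 1 (log2, SE; limma adjusted p = 0.0134). The median of the 910 tested genes on chromosome 2 differed by -0.27 in the same comparison, so Spred1 stood at -0.0074 relative to its chromosome. After chromosome medians were subtracted its difference was -0.0013 (limma adjusted p = 0.989), and without hairpin 1 replicate 1 it was -0.24 (0.0809), in a range of 0.00614 to 0.989. The part of the chromosome-wide difference in this result was not tested further.

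Etv5 (chromosome 16, 22381309 to 22439719), an ETS transcription factor, was at 17.5 and 16.6 TPM in hairpin 1 libraries, 19.97 and 18.8 TPM in hairpin 2 libraries, and 19.1 and 21.9 TPM in shNT libraries. It fell by 0.25 ± 0.08 with hairpin 1 (log2, SE; limma adjusted p = 0.0394), close to the -0.21 of the median of 353 genes on chromosome 16. After chromosome medians were subtracted the difference was -0.03 (limma adjusted p = 0.791). Leaving out shNT replicate 2 also ended the Etv5 call (-0.16, limma adjusted p = 0.0970). So did leaving out any 1 hairpin library, though the hairpin 2 libraries enter this difference only through the estimate of the spread. Over all alternatives the limma adjusted p was in a range of 0.00537 to 0.791. Etv4 (chromosome 11, 101769742 to 101785371), its close relative, was at 38.8 and 39.6 TPM with hairpin 1, 40.4 and 40.3 TPM with hairpin 2, and 36.0 and 37.4 TPM in shNT. Libraries of both hairpins lay above shNT, but the difference with hairpin 1 was 0.10 ± 0.04 (limma adjusted p = 0.115), near the 0.11 of the median gene, and its sign turned under median-ratio scaling (-0.0072), without small-RNA entries (-0.0793) and with chromosome medians subtracted (-0.0763).

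Phlda1 (chromosome 10, 111506286 to 111508645) was at 163 and 165 TPM in hairpin 1 libraries, 131 and 128 TPM in hairpin 2 libraries, and 114 and 118 TPM in shNT libraries. As for Spry1, the groups formed 3 separate levels with hairpin 2 in the middle. Phlda1 rose by 0.50 ± 0.04 with hairpin 1 (log2, SE; limma adjusted p = 0.000663). Phlda1 and Dusp6 lie on the same chromosome, whose 541 tested genes had a median of 0.20 with hairpin 1, and stood at 0.30 and -0.78 relative to it.

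**Figure D2:**
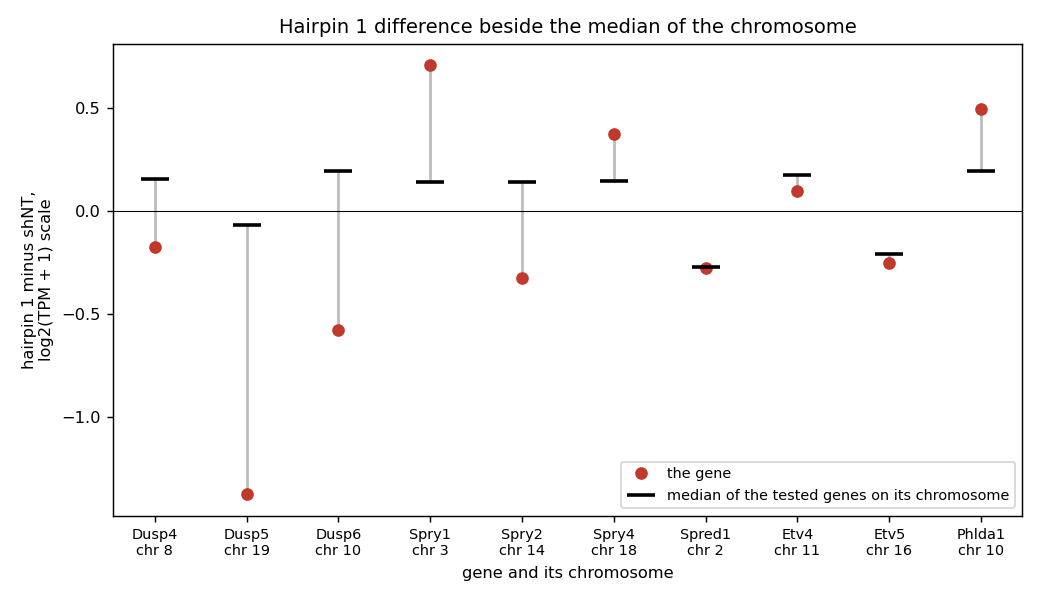
Hairpin 1 minus shNT on the log2(TPM + 1) scale (vertical axis) for each of the 10 genes (points) and for the median of the tested genes on the same chromosome (black bars). Spred1 and Etv5 lie at -0.28 and -0.25, beside chromosome medians of -0.27 and -0.21, while Dusp5 lies at -1.38, beside -0.07.

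The second comparison set hairpin 2 against control cells. Spry1 was the member that passed, and none of the 10 was called lower. Over all tested genes 9.63% were called in either direction, 6.62% higher and 3% lower. The median difference was -0.0007 for the 10 genes and 0.09 for all genes (log2). By limma 3 members had an unadjusted p under 0.05, all of them higher, and 0 were lower at that level. Over all 11549 tested genes, 2807 were higher and 930 lower at that level. Libraries did not overlap for 5 of the 10 genes, against 61.8% of all tested genes. Spry1 rose by 0.28 ± 0.05 with hairpin 2 (log2, SE; limma adjusted p = 0.0311), to 122% of the shNT mean, and stood at 0.19 relative to the median gene. Spry1 no longer passed in 10 of 17 alternatives, among them median-ratio scaling (0.19, limma adjusted p = 0.0882). It also failed to pass with only the compared groups fitted (limma adjusted p = 0.0833) and when any 1 hairpin library was left out, in a range of 0.0258 to 0.486. Without replicate 1 or 2 of hairpin 2 the difference was 0.30 and 0.25. Without either hairpin 1 library it stayed at 0.28, since those libraries enter only the estimate of the spread. Without shNT replicate 2, 2 of the 10 genes passed, the second being Phlda1 (0.19, limma adjusted p = 0.0255, in a range of 0.0255 to 0.912).

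The remaining members missed the threshold with hairpin 2, with intervals that bound their size. The Dusp5 difference was 0.06 (95% interval -0.05 to 0.17; limma adjusted p = 0.363) and that of Dusp6 0.01 (-0.12 to 0.14; 0.912). Both intervals exclude the fall seen with hairpin 1. For Spry2 the difference was -0.03 (-0.17 to 0.12; limma adjusted p = 0.779), and for Spry4 -0.13 (-0.31 to 0.05; 0.278). Phlda1 was at 0.16 (0.05 to 0.27; limma adjusted p = 0.0746) and Etv4 at 0.14 (0.03 to 0.24; 0.0984), intervals that lie above 0 for each gene alone but do not pass after adjustment. The Phlda1 and Etv4 intervals also include 0.09, the median of all tested genes with hairpin 2. Under median-ratio scaling the Phlda1 and Etv4 differences were 0.06 and 0.04, and without small-RNA entries 0.03 and 0.0046. Dusp4, Spred1 and Etv5 lay between -0.07 and -0.01.

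**Figure D3:**
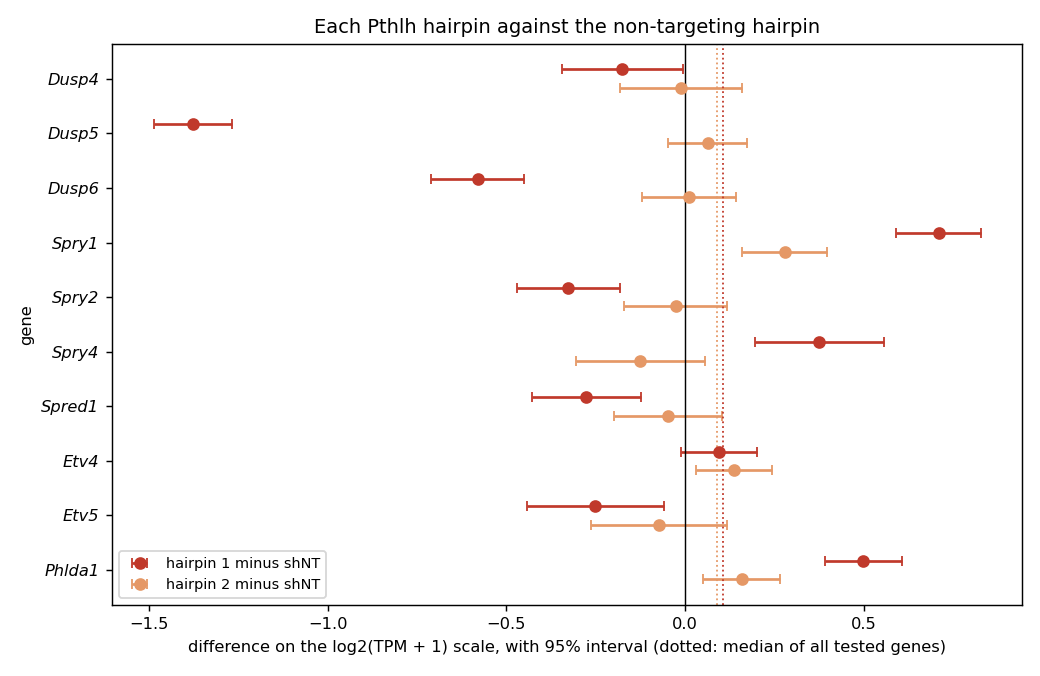
Difference from shNT on the log2(TPM + 1) scale (horizontal axis) for hairpin 1 and hairpin 2, with 95% intervals from limma and dotted lines at the median of all tested genes (0.11 and 0.09). Hairpin 2 points lie between -0.13 and 0.28, and hairpin 1 points between -1.38 and 0.71.

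The hairpins were then compared directly. Of the 10 genes, 4 were called higher with hairpin 2 than with hairpin 1 (Dusp5, Dusp6, Spry2 and Spred1) and 3 lower (Spry1, Spry4 and Phlda1). Over all tested genes 19.9% were called higher, 20.2% lower and 40.1% in either direction, and libraries of the hairpins did not overlap for any of the 10 genes, as for 77% of all tested genes. Dusp5 was higher by 1.44 ± 0.04 with hairpin 2 (log2, SE; limma adjusted p = 5.2e-05) and Dusp6 by 0.59 ± 0.05 (limma adjusted p = 0.00105). Spry1 differed by -0.43 ± 0.05 (limma adjusted p = 0.00190), Spry4 by -0.50 ± 0.07 (0.00450) and Phlda1 by -0.34 ± 0.04 (0.00300). Spry2, at 0.30 ± 0.06 (limma adjusted p = 0.0113), and Spred1, at 0.23 ± 0.06 (0.0315), passed less firmly. Leaving out any 1 of the 4 hairpin libraries reduced the count called higher to 2, since Spry2 and Spred1 dropped out. For replicates 1 and 2 of hairpin 1, then of hairpin 2, the limma adjusted p was 0.0711, 0.0625, 0.0620 and 0.0721 for Spry2, and 0.155, 0.0759, 0.0845 and 0.159 for Spred1. Over all alternatives these p-values ranged from 0.00250 to 0.0721 for Spry2 and from 0.0209 to 0.568 for Spred1. After chromosome medians were subtracted Spred1 turned to -0.05.

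In the knockdown comparison the hairpins were averaged and held against shNT, and each member called there was also called with hairpin 1. There Dusp5, Dusp6 and Spry2 fell and Spry1 and Phlda1 rose, that is 3 of 10 lower and 2 higher, with 12.1% of all tested genes lower, 27.3% higher and 39.4% in either direction. With hairpin 2 alone the differences were 0.06 for Dusp5, 0.01 for Dusp6 and -0.03 for Spry2, so their averaged falls rest on hairpin 1. For Spry1 and Phlda1 they were 0.28 and 0.16. Dusp6 fell by 0.29 ± 0.05 (log2, SE; limma adjusted p = 0.00746) and Spry2 fell by 0.18 ± 0.05 (limma adjusted p = 0.0394). Leaving out shNT replicate 2 ended the Spry2 call (-0.11, limma adjusted p = 0.0919), and so did leaving out replicate 1 or 2 of hairpin 1 (0.109 and 0.0965) or of hairpin 2 (0.110 and 0.0991), in a range of 0.00808 to 0.399. Phlda1 did not pass without small-RNA entries (0.17, limma adjusted p = 0.105, in a range of 0.00190 to 0.218). Median-ratio scaling gave 5 lower members, with Spred1 and Etv5 added. Over all tested genes it gave 2155 lower, against 1401 in deposited TPM. With the hairpins pooled as 1 group of 4, limma called 0 of the 10, the smallest adjusted p was 0.173, and 2 had an unadjusted p under 0.05. That fit called 0 genes higher and 1 lower among all 11549 tested, so the 0 is not particular to these members.

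Within the Sprouty family the leading member differed between groups. Spry1 took 47.0% and 48.1% of the TPM of the 3 Sprouty genes in hairpin 1 libraries, 37.4% and 37.6% in hairpin 2 libraries, and 33.7% and 30.8% in shNT libraries. The shares of Spry2 were 40.6% and 40.7% with hairpin 1, 54.3% and 53.6% with hairpin 2, and 56.4% and 59.2% in shNT. Spry1 was thus the most abundant Sprouty transcript in both hairpin 1 libraries and Spry2 in the other 4. The summed TPM of the family was 79.9 and 80.9 with hairpin 1, 73.9 and 76.1 with hairpin 2, and 69.55 and 73.2 in shNT. For the ERK phosphatases the sum itself was lower, at 119 and 125 TPM with hairpin 1, beside 183.9 and 184.5 TPM for hairpin 2 and 188 and 176 TPM for shNT. Dusp5 made up 15.1% and 14.8% of it with hairpin 1, 27.25% and 28.3% with hairpin 2, and 26.2% and 27.6% in shNT. The sum over all 10 genes was 435 and 444 TPM with hairpin 1, 468 and 468 TPM with hairpin 2, and 447 and 446 TPM in shNT, since Phlda1 and Spry1 were higher where the phosphatases were lower. These sums and shares are descriptions and were not tested.

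**Figure D4:**
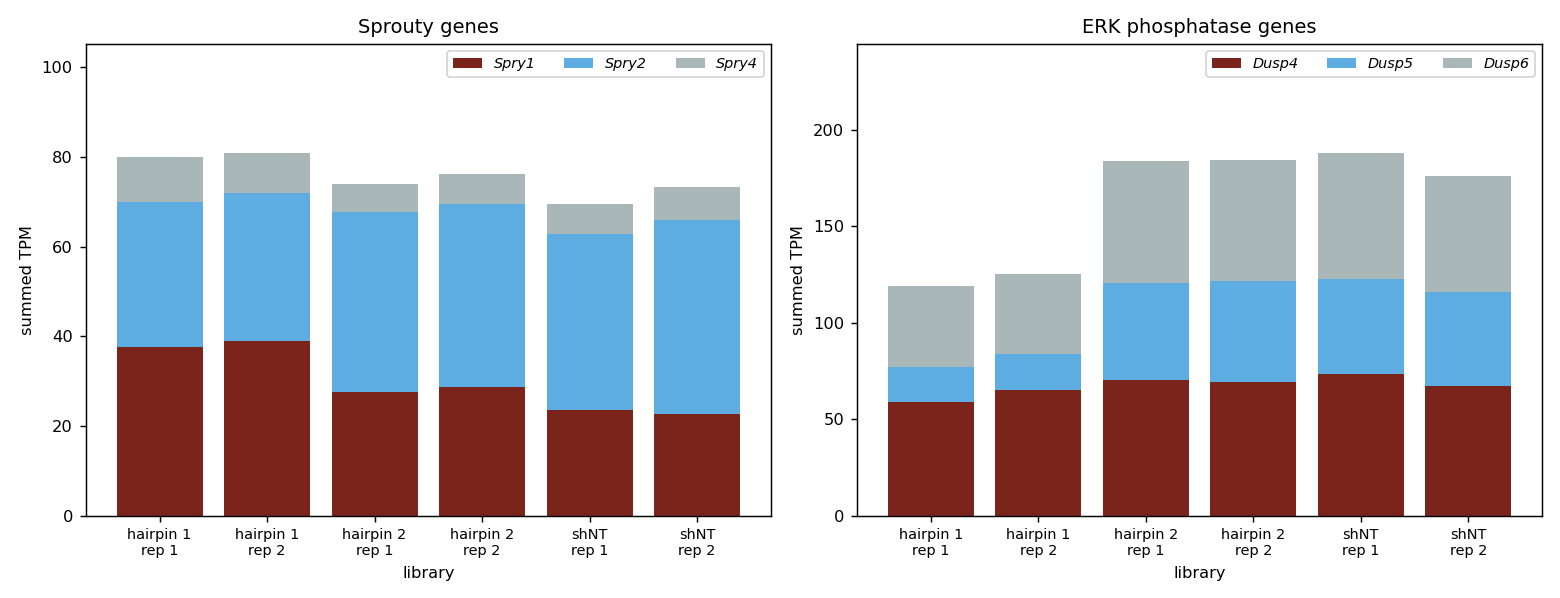
Stacked TPM (vertical axes, from 0) of Spry1, Spry2 and Spry4 and of Dusp4, Dusp5 and Dusp6 in each hairpin 1, hairpin 2 and shNT library. The Sprouty sum lies between 69.55 and 80.9 TPM in all libraries, and the phosphatase sum is 119 and 125 TPM with hairpin 1, against 176 to 188 TPM in the others.

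Other genes of the pathway were taken as 5 lists. Of other feedback genes, 8 of 10 tested members fell with hairpin 1 and 0 rose by limma (1 higher at unadjusted p under 0.05), beside 18.1% lower and 32.1% higher over all tested genes, with a median of -0.38, against 0.11 for all genes (log2). Dusp10, a phosphatase of stress kinases, was at 6.73 TPM with hairpin 1, 11.1 TPM with hairpin 2 and 10.4 TPM in shNT, and fell by 0.57 ± 0.05 with hairpin 1 (log2, SE; limma adjusted p = 0.000947). Dusp9, another ERK phosphatase, was at 2.09, 5.44 and 4.89 TPM in the hairpin 1, hairpin 2 and shNT groups and fell by 0.93 ± 0.10 with hairpin 1 (limma adjusted p = 0.00112). Errfi1, a feedback inhibitor of EGF receptors, was low with both hairpins, at 28.4 and 29.2 TPM with hairpins 1 and 2, against 38.0 TPM in shNT, and fell by 0.41 ± 0.07 with hairpin 1 (limma adjusted p = 0.00461). It was the 1 member of this list called with hairpin 2. That call was lost when any 1 hairpin library or shNT replicate 1 was left out. Hairpin 1 libraries enter that difference only through the estimate of the spread. Dusp16, a phosphatase of stress kinases, fell by 0.38 ± 0.09 with hairpin 1 (limma adjusted p = 0.0189), which did not pass with shNT replicate 1 left out (0.0679) or hairpin 1 replicate 2 left out (0.0943), in a range of 0.00692 to 0.0943. The number that fell with hairpin 1 was 6 to 8 over all alternatives.

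Of other genes commonly induced by ERK, 10 of 20 fell with hairpin 1 and 4 rose, beside 18.1% lower and 32.1% higher over all tested genes, with a median of -0.20 (log2). Without small-RNA entries 12 were lower and 1 higher, beside 2824 lower and 1714 higher of all 11609 genes tested in that fit. Epha4, a receptor kinase of ephrins, was at 8.11 TPM with hairpin 1, 21.2 TPM with hairpin 2 and 22.2 TPM in shNT, and fell by 1.35 ± 0.07 with hairpin 1 (log2, SE; limma adjusted p = 0.000156). Hbegf, an EGF receptor ligand, was at 33.0, 56.9 and 60.9 TPM in the hairpin 1, hairpin 2 and shNT groups and fell by 0.87 ± 0.05 with hairpin 1 (limma adjusted p = 0.000184). Ccnd1, cyclin D1, was at 240 TPM with hairpin 1, 391 TPM with hairpin 2 and 419 TPM in shNT, and fell by 0.80 ± 0.05 with hairpin 1 (limma adjusted p = 0.000327). Etv1, the third factor of the ETV4 and ETV5 subfamily, went the other way. It was at 2.29 TPM with hairpin 1, 0.125 TPM with hairpin 2 and 0.0527 TPM in shNT. Etv1 is 1 of the 4 that rose, with a difference of 1.64 ± 0.13 with hairpin 1 (log2, SE). It passed the filter only through the hairpin 1 libraries, where it was high, so its call is no independent support for the rise. The size of the Etv1 rise rests on the pseudocount, at 3.97 with 0.1. Epha2, an ephrin receptor, was called with both hairpins in opposite directions, as were 74 of all tested genes and none of the 10 members. It was at 119 TPM with hairpin 1, 157 TPM with hairpin 2 and 134 TPM in shNT, and the hairpin 1 difference was -0.16 ± 0.04 (limma adjusted p = 0.0259), against 0.23 ± 0.04 for hairpin 2 (0.0349). Leaving out any 1 hairpin library ended both Epha2 calls. The libraries of the other hairpin enter each difference only through the estimate of the spread. Without either hairpin 1 library the hairpin 2 difference thus stayed at 0.23, and without replicate 1 or 2 of hairpin 2 it was 0.24 and 0.22. With only the compared groups fitted it did not pass (limma adjusted p = 0.0978). The Epha2 ranges were 0.00252 to 0.134 for hairpin 1 and 0.0110 to 0.588 for hairpin 2. Under each other scaling the hairpin 2 call of Epha2 was lost as well.

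The RAS-RAF-MEK-ERK list, which holds RAS and scaffold genes as well as kinases, had a higher median with hairpin 1 than these outputs. Of 12 tested members, 6 rose and 3 fell with hairpin 1 in deposited TPM, beside 32.1% higher and 18.1% lower over all tested genes. The list median was 0.18, against 0.11 for all genes (log2). Median-ratio scaling gave 5 higher and 4 lower, beside 2623 higher and 2802 lower of all 11549 tested genes. Leaving out small-RNA entries gave 4 higher and 4 lower, beside 1714 higher and 2824 lower of 11609. The list median was then 0.04 without small-RNA entries, and it was -0.0095 with chromosome medians subtracted. Mapk3, which encodes ERK1, was at 158 TPM with hairpin 1, 116 TPM with hairpin 2 and 100.2 TPM in shNT (SD 1.26, 4.62 and 10.6, n = 2 each), and rose by 0.66 ± 0.08 with hairpin 1 (log2, SE; limma adjusted p = 0.00175). Lamtor3, a scaffold of MEK and ERK1, rose by 0.59 ± 0.07 with hairpin 1 and Hras, a RAS protein, by 0.48 ± 0.06 (limma adjusted p = 0.00171 and 0.00235). Leaving out hairpin 1 replicate 2 gave 4 higher and 2 lower, and leaving out hairpin 1 replicate 1 gave 5 higher and 1 lower. Hras was the 1 member called with hairpin 2 (0.36, limma adjusted p = 0.0311), or 8.33% of the list, beside 9.63% of all tested genes. Median-ratio scaling gave 0 higher there, and the call did not hold when any 1 hairpin library was left out. Of these, the hairpin 1 libraries enter the difference only through the estimate of the spread.

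Upstream of RAS, 3 of 9 tested adaptors and exchange factors rose and 2 fell with hairpin 1, shares near the 32.1% higher and 18.1% lower of all tested genes. With small-RNA entries left out, limma called 2 lower and 0 higher, beside 2824 lower and 1714 higher of all 11609 genes tested in that fit. Gab2, a docking protein, was at 1.24 TPM with hairpin 1, 2.52 TPM with hairpin 2 and 2.94 TPM in shNT, and fell by 0.81 ± 0.11 with hairpin 1 (log2, SE; limma adjusted p = 0.00260). Sos2, a RAS exchange factor, rose by 0.42 ± 0.07 and the adaptor Shc1 by 0.31 ± 0.05 with hairpin 1 (limma adjusted p = 0.00459 and 0.00336). Sos2 and Shc1 did not pass without small-RNA entries (limma adjusted p = 0.0810 and 0.282, in ranges of 0.00448 to 0.0810 and 0.00302 to 0.282). Shoc2, a scaffold of RAF activation, fell by 0.17 ± 0.05 with hairpin 1 (limma adjusted p = 0.0417), which did not pass in 10 of 17 alternatives, in a range of 0.0110 to 0.202. Among them were the fits without shNT replicate 1 and those without any 1 hairpin library. Libraries of hairpin 2 enter the Shoc2 difference only through the estimate of the spread. Of 7 tested RAS GTPase-activating proteins, 1, Dab2ip, fell with hairpin 1 by limma, or 14.3%, beside 18.1% of all tested genes. The number higher was 0, also at unadjusted p under 0.05. Dab2ip was at 13.6 TPM with hairpin 1, 16.003 TPM with hairpin 2 and 20.5 TPM in shNT, and fell by 0.56 ± 0.07 with hairpin 1 (limma adjusted p = 0.00214). Its hairpin 1 difference lay between -0.74 and -0.29 over the alternatives. With hairpin 2 limma called 1 of the 7 lower, or 14.3%, beside 3% of all tested genes, and 0 with chromosome medians subtracted. The number was also 0 with no filter, a variance prior without a trend, the replicate block or only the compared groups fitted. It stayed at 1 with either smaller pseudocount, a mean TPM of at least 5, quantile normalization, median-ratio scaling or no small-RNA entries. Rasa1, Rasa2 and Rasa3 missed the threshold at 0.08, -0.06 and -0.16. Median-ratio scaling gave 4 lower members of this list with hairpin 1. Over all 11549 tested genes it gave 2802 lower, against 2096 in deposited TPM.

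**Figure D5:**
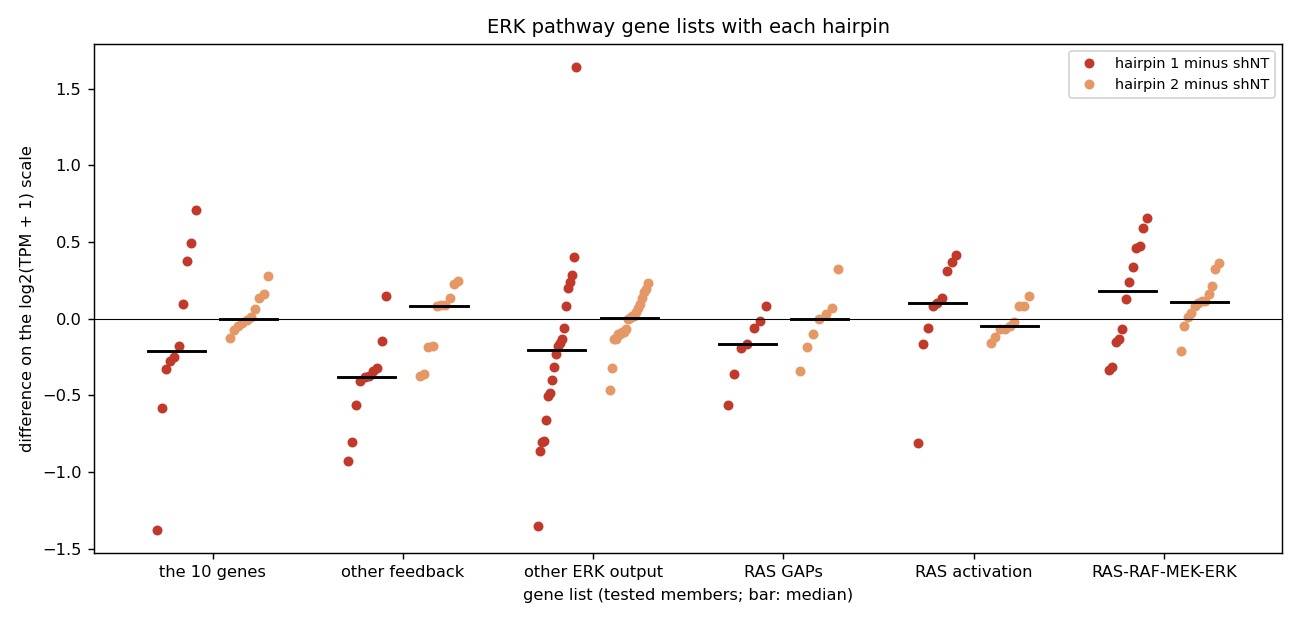
Difference from shNT on the log2(TPM + 1) scale (vertical axis) with hairpin 1 and hairpin 2 for each tested gene (points) of the 10 genes and of 5 other ERK pathway lists, with a bar at the median of each list. The hairpin 1 median is -0.38 for other feedback genes and 0.18 for the RAS-RAF-MEK-ERK list, against medians of 0.09 and 0.11 with hairpin 2.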

How the data were processed

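RNA sequencing was done on 6 mouse libraries, grouped by the hairpin in the sample titles. The authors deposited 1 table of TPM that sums to 1000000 per library over 24493 genes. The tools that the submitters' processing notes list are DESeq2, R 3.5 and Salmon, and the build is mm10; the role of each tool is not given in the sources used here. TPM holds no read number, so depth is unknown and no counting interval is given. TPM are shares of a whole, so a large entry moves every other value.

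The test took the 11549 genes that reached 1 TPM in 2 or more libraries and was run with limma 3.58.1 in R 4.3.3 on log2(TPM + 1), with 3 group means and a variance prior that followed mean expression, after a check on simulated data. Positions came from GENCODE M21, promoters from RefSeq. The 10 genes, the gene lists and the motifs were chosen with earlier results of these data known. Named list genes were the 4 with the smallest p per list in the knockdown comparison, and any called with both hairpins in opposite directions; 1 of them is not reported here. Alternatives changed the pseudocount, filter, scaling, variance prior, block, chromosome centring and the libraries used.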

Additional observations from a re-analysis of the deposited data

Results flagged for a closer look

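For 7 of the 10 genes the difference from shNT was not the same with both hairpins, by limma's test of hairpin 2 against hairpin 1. The differences on the log2 scale were 1.44 for Dusp5, 0.59 for Dusp6, 0.30 for Spry2 and 0.23 for Spred1, higher with hairpin 2, and -0.43 for Spry1, -0.50 for Spry4 and -0.34 for Phlda1, lower with hairpin 2. Over all tested genes 40.1% were called in this comparison. The calls of Spry2 and Spred1 did not hold when any single hairpin library was left out, and Spred1 turned to -0.0533 with chromosome medians subtracted. Pthlh averaged 0.0528 TPM with hairpin 1, 0.152 TPM with hairpin 2 and 0.859 TPM in shNT, below the filter of the tests, and whether clone, hairpin or growth history moves with these differences cannot be told apart. With 2 libraries in each group no single library could be tested as standing apart.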

How the results depend on the processing

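Of 136 counts of members recomputed under the alternatives, 114 stayed within 1.5 times the reported count, and of 680 recomputed differences of single members 594 kept their direction and their side of the threshold. With hairpin 1, Dusp5, Dusp6, Spry1, Spry2 and Phlda1 did so in all 17 alternatives. In the knockdown comparison the number called higher (2) was 1 without small-RNA entries. The number called lower (3) was 5 after quantile normalization, after median-ratio scaling and without small-RNA entries. Both were 0 with the hairpins pooled as 1 group, where 0 of all tested genes were called higher and 1 lower. With hairpin 1 the number lower (5) was 3 to 5 when 1 library was left out. With hairpin 2 the number higher (1) was 0 after quantile normalization, median-ratio scaling, omission of small-RNA entries or chromosome centring, with the replicate block and when only the compared groups were fitted, and 0 to 2 when 1 library was left out. Hairpin 2 against hairpin 1 gave 2 to 5 members higher when 1 library was left out. The cause was not tested.

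Some differences near 0 turned sign. In the knockdown comparison Spry4 was -0.0147 and Etv4 -0.0374 without small-RNA entries, and Etv4 was -0.0372 after chromosome centring. With hairpin 1, Etv4 was -0.0072 after median-ratio scaling, -0.0793 without small-RNA entries and -0.0763 after chromosome centring. Rasa2 was 0.0740 after chromosome centring, and Rasa1 was -0.0057 after quantile normalization, -0.0199 after median-ratio scaling, -0.0911 without small-RNA entries and -0.0264 after chromosome centring. Under quantile normalization, median-ratio scaling, omission of small-RNA entries and chromosome centring, in that order, the hairpin 2 differences were -0.0201, -0.0312, -0.0690 and -0.0177 for Dusp5 and -0.0767, -0.0841, -0.1222 and -0.1039 for Dusp6. When 1 library was left out, hairpin 2 differences spanned -0.0732 to 0.0499 for Dusp4, -0.0484 to 0.0690 for Dusp6, -0.0973 to 0.0440 for Spry2, -0.0960 to 0.0001 for Spred1 and -0.1659 to 0.0191 for Etv5. Hairpin 2 against hairpin 1 turned to -0.0533 for Spred1 and -0.0976 for Etv5 after chromosome centring.

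Replicate numbers did not pair the libraries, with correlations of 0.021, 0.015 and -0.044 between the groups' replicate deviations. With the replicate block the members called were 2 higher and 3 lower in the knockdown comparison and 0 higher with hairpin 2. Over all genes the hairpin 2 counts of 765 higher and 347 lower became 163 and 113 with the block, 244 and 554 after median-ratio scaling, 6 and 0 without hairpin 2 replicate 1, and 2091 and 562 without shNT replicate 2. With hairpin 1, 3702 higher and 2096 lower became 2623 and 2802 after median-ratio scaling, 1714 higher without small-RNA entries, 2319 higher after chromosome centring and 2227 higher without hairpin 1 replicate 1. In the knockdown comparison 3149 and 1401 became 1742 and 2155 after median-ratio scaling, 967 and 1953 without small-RNA entries, and 0 and 1 with the hairpins pooled. Depth is unknown, and 2 libraries a group limit all intervals.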
